A study of Mus musculus with 9 samples.

Results

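Leukaemia B (LeuB) is a mouse leukaemia of Tet2-/-:AE genotype, and its cells from the granulocyte-macrophage progenitor (GMP) gate were compared with wild-type (WT) cells from the same gate. The comparison used 3 LeuB arrays and 3 WT arrays of the 9 in the series, chosen by the sample titles, and all 21872 genes that carry a symbol. The remaining 3 arrays hold a leukaemia of the same genotype from another mouse (LeuA). LeuB cells came from C57BL/6-background recipient mice that had received spleen cells of a moribund mouse lacking Tet2, a DNA demethylase gene, and carrying AE, the AML1-ETO fusion of human leukaemia. LeuA recipients had received spleen cells from the other such mouse. WT recipients had received wild-type bone marrow. In all 3 groups cells were sorted from recipient bone marrow 1 month after transplantation by the gate Lin-cKit+Sca1-CD16/32+CD150-, and total RNA was hybridised with Cy3 dye to Agilent SurePrint G3 Mouse arrays. All 3 LeuB arrays descend from 1 leukaemic mouse, and the labels do not say whether an array holds 1 recipient or several. The grafted tissue changes with the genotype, so spleen-derived leukaemia and Tet2-/-:AE genotype cannot be told apart here. The promoter that drove AE is not given in the sources used here. The transplantation label of the LeuB arrays writes LeuA beside the name AE3, and the grouping followed the title and source name, which give AE3 and LeuB.

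A GMP is a marrow progenitor that normally gives rise to neutrophils and monocytes. It is known for high output of azurophil granule proteins (myeloperoxidase, neutrophil elastase, proteinase 3, cathepsin G) under the factors PU.1, C/EBP alpha and C/EBP epsilon, while erythroid cells use GATA1, KLF1 and TAL1 to make haemoglobin and the red cell membrane. AML1-ETO joins the DNA-binding part of the transcription factor RUNX1 to the corepressor-binding protein RUNX1T1, and TET2 oxidises methylated cytosine.

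The LeuB cells from this gate did not carry the RNA profile that the GMP name stands for. A list of 8 GMP and granule genes was drawn up with earlier results of these data known and is not independent evidence (Mpo, Elane, Prtn3, Ctsg, Ms4a3, Prss57, Cebpa and Cebpe), and all 8 fell. Their summed intensity was 11.02, 11.05 and 11.26 (log2) on the LeuB arrays, against 19.70, 19.60 and 19.57 on the WT arrays. The erythroid list, likewise drawn up with earlier results known and not independent evidence, ran the other way, and all 9 measured genes rose. Its summed intensity was 17.93, 17.98 and 18.01 in LeuB cells, against 12.07, 12.13 and 12.17 in WT cells. Among all genes, 21.8% were called higher in LeuB than in WT cells and 20.4% lower (adjusted p under 0.05, limma). LeuA cells gave similar sums: 11.5, 11.3 and 11.3 for the GMP list and 17.8, 17.6 and 17.7 for the erythroid list. Neither shift was therefore particular to LeuB. All these sums are those of arrays of bulk RNA, in which fewer cells of a type and less RNA per cell cannot be told apart.

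6 promoter stretches show the sequence context of genes on both sides of the comparison. They were chosen after the values were seen, among genes that rose (Hbb-bs, Epor, Alas2) or fell (Mpo, Prtn3, Elane), because their window holds the motif. Each is 100 bases of the RefSeq promoter window (GRCm38.p6), 5′ to 3′ along the gene, and capitals mark a motif: for Hbb-bs, Epor and Alas2 the letters known for erythroid factors of the GATA family, AGATAA on either strand (read as TTATCT on the reverse strand), and for the other genes those known for PU.1, written GAGGAAGT.
Hbb-bs, chr7:103828079-103828178, minus strand: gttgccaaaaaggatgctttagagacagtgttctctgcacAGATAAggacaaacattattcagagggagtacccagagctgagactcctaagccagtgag
Epor, chr9:21963578-21963677, minus strand: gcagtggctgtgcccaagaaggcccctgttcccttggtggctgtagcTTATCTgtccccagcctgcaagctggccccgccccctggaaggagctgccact
Alas2, chrX:150547284-150547383, plus strand: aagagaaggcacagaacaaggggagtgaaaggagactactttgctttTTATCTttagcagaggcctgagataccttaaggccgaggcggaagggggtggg
Mpo, chr11:87793534-87793633, plus strand: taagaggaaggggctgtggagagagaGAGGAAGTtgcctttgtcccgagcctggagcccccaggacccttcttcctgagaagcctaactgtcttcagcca
Prtn3, chr10:79879526-79879625, plus strand: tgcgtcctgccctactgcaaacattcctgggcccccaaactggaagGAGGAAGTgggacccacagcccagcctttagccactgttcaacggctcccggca
Elane, chr10:79886181-79886280, plus strand: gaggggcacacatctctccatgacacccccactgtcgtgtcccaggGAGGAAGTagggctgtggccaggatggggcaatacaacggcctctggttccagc
The motif starts 210 bases before the transcription start in Hbb-bs, 54 in Epor, 86 in Alas2, 224 in Mpo, 95 in Prtn3 and 85 in Elane. Of the other genes looked up for this display, Kel, which rose, also holds AGATAA, while Hba-a1, Gata1, Klf1, Gfi1b, Ddc, Tph1 and Ermap, which rose, hold none, and Ctsg, Ms4a3, Ly86, F13a1 and Irf8, which fell, hold no GAGGAAGT. A match describes letters in the window and is neither a binding site nor a cause.

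Of the 21872 genes, 42.3% were called different between LeuB and WT cells (adjusted p under 0.05, limma), with 21.8% higher in LeuB (4770 genes) and 20.4% lower (4471 genes). Rises and falls in every gene list below are to be read against these 2 shares, and a count near them is no result about the list. The values are log2 intensities, so a difference of 1 is a 2-fold difference in intensity. The 3 LeuB arrays lay wholly above the 3 WT arrays in 27.2% of genes and wholly below in 25.2%. Most called differences were small: 6228 called genes moved by less than 2-fold, and the median called rise was 0.65 and the median called fall -0.66. At the other end, 296 genes rose and 376 fell at least 8-fold, and 33 rose and 43 fell at least 64-fold. The median change over all genes was -0.01. Of the 9241 called genes, 6805 were also called between LeuA and WT in the same direction, and 72 in the opposite direction. Both comparisons share the WT arrays. The median standard deviation was 0.11 among the LeuB arrays and 0.08 among the WT arrays, and the median standard error of the difference was 0.09.

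**Figure D1:**
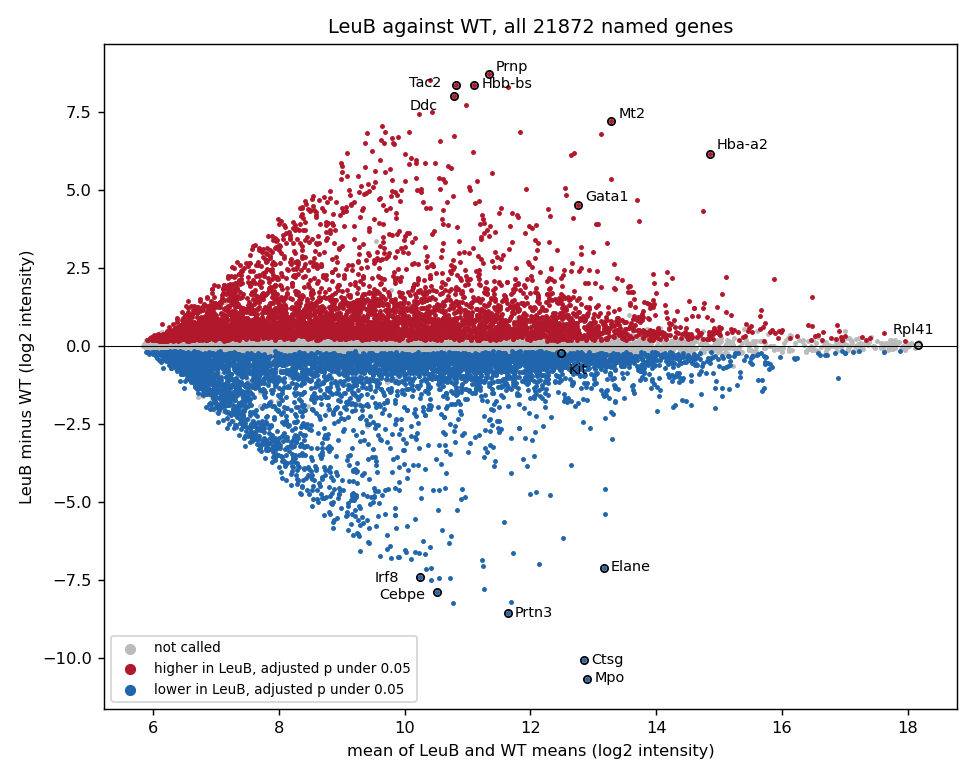
Change of every gene between LeuB and WT cells (LeuB minus WT, log2, vertical) against its mean log2 intensity over the 6 arrays (horizontal), with called genes coloured. Globin genes, Prnp, Tac2 and Ddc lie at the top, Mpo and Ctsg at the bottom, and Kit and Rpl41 near 0.

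LeuB 1 was hybridised on the slide that holds all WT arrays, and LeuB 2 and LeuB 3 on another. Slide 2 holds no WT or LeuA array, so a fit with slide as a block takes LeuB differences from LeuB 1 alone. The size of a change in that fit, and so what held or ended there, rests on 1 LeuB array. Both slide 2 arrays lay below all 7 slide 1 arrays in 3267 genes and above them in 3282, although the gap exceeded 1 log2 unit on average in only 163 and 274 of these. For LeuB against WT, 7106 genes were called with slide as a block, and 6646 of the 9241 main calls held in the same direction. Among the 3013 called genes that moved at least 2-fold, 2979 held with the slide block. Array medians ran from 7.02 to 7.04 and the highest value was 18.24 on every array, which caps the brightest genes. No background level is given with the values, so a fold is a ratio of intensities and understates a change that ends near the bottom of the scale (5.66).

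The largest rises were led by Prnp, Tac2 and the globin genes. Prnp, the prion protein gene, read 15.68, 15.83 and 15.59 on the LeuB arrays, against 7.22, 6.88 and 6.84 on the WT arrays, a change of 8.72 ± 0.17 SE, adjusted p = 3.7e-10. Tac2, which encodes a tachykinin neuropeptide precursor, read 14.92, 15.02 and 15.07 on the LeuB arrays, against 6.86, 6.55 and 6.45 on the WT arrays, and changed by 8.38 ± 0.14 SE, adjusted p = 1.6e-10. All 3 LeuB arrays lay above 14 for both genes and no WT array reached 8. The beta-globin genes followed: Hbb-bs read 15.21, 15.25 and 15.43 in LeuB cells and 7.71, 6.57 and 6.45 in WT cells, a change of 8.38 ± 0.28 SE, adjusted p = 1e-08. Hbb-b2 changed by 8.31, and the alpha-globin gene Hba-a1 by 6.78. Globin copies are nearly identical, so single members cannot be told apart by these probes.

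Enzymes and metal-binding proteins made up much of the rest of the 15 largest rises. Ddc, the aromatic amino acid decarboxylase, read 14.79, 14.75 and 14.88 on the LeuB arrays, against 6.74, 6.80 and 6.79 on the WT arrays, a change of 8.03 ± 0.06 SE, adjusted p = 6.3e-12, and its other probe rose by 5.19. Tph1, which carries out the rate-limiting step of serotonin synthesis, read 13.85, 13.96 and 14.07 on the LeuB arrays, against 6.50, 6.53 and 6.51 on the WT arrays, a change of 7.45 ± 0.07 SE, adjusted p = 2.1e-11. Both genes of this short pathway therefore had LeuB levels over 13 and WT levels below 7. Mt2, a metallothionein, read 16.90, 16.96 and 16.80 on the LeuB arrays, against 8.91, 10.09 and 10.05 on the WT arrays (7.21 ± 0.27 SE, adjusted p = 2.6e-08). Sphk1, which makes sphingosine 1-phosphate, read 15.27, 15.27 and 15.28 on the LeuB arrays, against 7.28, 9.05 and 8.86 on the WT arrays (6.88 ± 0.38 SE, adjusted p = 3.9e-07). Padi3, a peptidylarginine deiminase, changed by 6.86, Sapcd1 by 7.71, and Crybg1 by 7.52.

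In 5 genes the level crossed the whole range, with every WT array under the 25th percentile of its genes and every LeuB array above the 90th. Pmp22, a myelin membrane protein gene, read 13.11, 13.18 and 13.21 on the LeuB arrays, against 6.19, 6.13 and 6.05 on the WT arrays (7.04 ± 0.10 SE, adjusted p = 1.1e-10). Wt1, the Wilms tumour transcription factor gene often expressed in leukaemia, read 12.78, 12.96 and 12.72 on the LeuB arrays, against 5.96, 5.94 and 6.03 on the WT arrays (6.84 ± 0.09 SE, adjusted p = 6.6e-11). Clca3a2 changed by 6.85, the homeobox gene Dbx2 by 6.60, and Ccdc92b by 6.51. The reverse crossing was seen in 4 genes. Gng12, a G protein subunit gene, read 5.99, 5.92 and 6.11 on the LeuB arrays, against 12.65, 12.50 and 12.56 on the WT arrays (-6.57 ± 0.09 SE, adjusted p = 9.9e-11). Bcr, the fusion partner of ABL1 in other leukaemias, read 6.27, 6.22 and 6.35 on the LeuB arrays, against 12.58, 12.63 and 12.49 on the WT arrays (-6.28 ± 0.06 SE, adjusted p = 2.1e-11). Tspan3, a tetraspanin gene, changed by -6.01. Pxylp1 changed by -6.31 on the brighter probe, while its other probe read -0.15 and was not called.

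The largest falls were led by the granule proteins of the GMP. Mpo, myeloperoxidase, read 6.46, 7.70 and 8.56 on the LeuB arrays, against 18.24, 18.24 and 18.24 on the WT arrays, which is the ceiling of the scale on every WT array. The difference of -10.67 (adjusted p = 3.1e-08) is therefore a lower bound on the size of the fall, and its other probe fell by 10.95. The LeuB readings of Mpo differed by over 2 log2 units among themselves, lowest on LeuB 1. Ctsg, cathepsin G, read 7.47, 7.67 and 8.29 on the LeuB arrays, against 17.91, 17.92 and 17.84 on the WT arrays (-10.08 ± 0.23 SE, adjusted p = 8.4e-10). Prtn3, proteinase 3, read 7.16, 7.33 and 7.59 on the LeuB arrays, against 16.16, 15.83 and 15.79 on the WT arrays (-8.57 ± 0.13 SE, adjusted p = 1.1e-10), and Elane, neutrophil elastase, read 9.91, 9.50 and 9.42 on the LeuB arrays, against 17.06, 16.55 and 16.55 on the WT arrays (-7.11 ± 0.19 SE, adjusted p = 2.1e-09). For all 4 genes every LeuB array lay below every WT array, which the choice of the largest falls required.

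Outside the granule genes, the 15 largest falls included surface, secreted and signalling proteins. Ly6c1, a myeloid and endothelial surface antigen gene, read 6.85, 7.09 and 8.78 on the LeuB arrays, against 16.48, 15.46 and 15.45 on the WT arrays (-8.22 ± 0.47 SE, adjusted p = 4.8e-07). Emb, which encodes embigin, a partner of monocarboxylate transporters, read 6.39, 6.61 and 6.99 on the LeuB arrays, against 14.33, 14.14 and 14.06 on the WT arrays (-7.52 ± 0.14 SE, adjusted p = 2.6e-10). For both genes LeuB 3 was the highest LeuB array, and it lay below every WT array, as the choice of the largest falls required. Fabp5, a fatty acid binding protein gene, changed by -7.46, Slpi, a secreted inhibitor of neutrophil proteases, by -7.43, Ccl9, a chemokine gene, by -7.11, and Rgcc by -7.16. Plppr3 changed by -8.26 on the brighter probe, but its other probe read -0.05 and was not called, and their average gave -4.15.

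**Figure D2:**
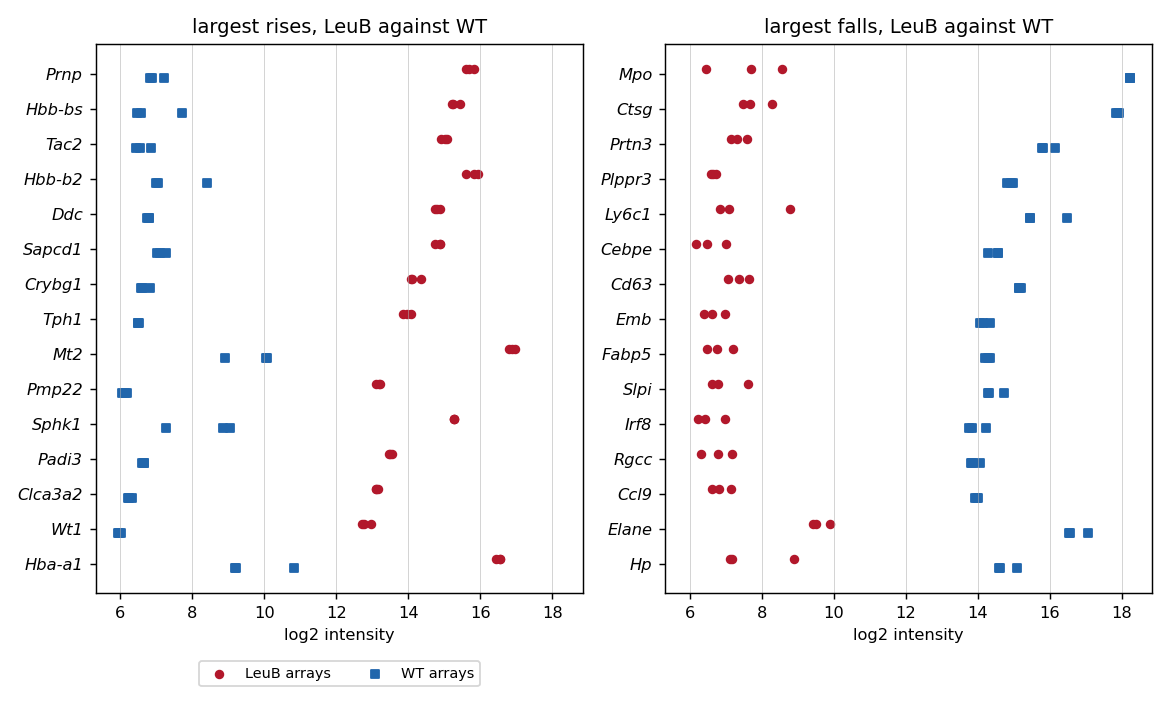
Log2 intensity of the 15 largest rises and 15 largest falls on each of the 3 LeuB and 3 WT arrays (1 point per array). The genes were chosen among those whose LeuB and WT arrays do not overlap.

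Azurophil granule genes were taken as a group of 15 measured genes, of which 13 fell and 1 rose, with a median change of -4.59. Ms4a3, a marker of committed granulocyte-monocyte progenitors named here after its values were seen, read 8.43, 8.79 and 8.74 on the LeuB arrays, against 15.82, 15.56 and 15.52 on the WT arrays. Cd63, a granule membrane tetraspanin gene, read 7.06, 7.38 and 7.65 on the LeuB arrays, against 15.20, 15.15 and 15.14 on the WT arrays (-7.80 ± 0.58 SE, adjusted p = 3.5e-06). The gene that rose was Srgn, serglycin, the proteoglycan that packs granule proteases in neutrophils and mast cells alike, also named after its values were seen. It read 16.83, 16.79 and 16.77 on the LeuB arrays, against 16.26, 16.06 and 16.17 on the WT arrays (0.63 ± 0.07 SE, adjusted p = 4.4e-05), high in both groups.

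Secondary granule and mature neutrophil genes gave a less even picture, and individual arrays decided it. Of 16 measured genes 6 fell and none rose, with a median change of -1.87. Hp, haptoglobin, read 7.12, 7.17 and 8.89 on the LeuB arrays, against 15.10, 14.63 and 14.60 on the WT arrays (-7.05 ± 0.41 SE, adjusted p = 5.4e-07). S100a8, a calprotectin subunit gene, read 6.71, 7.89 and 11.24 on the LeuB arrays, against 13.12, 13.21 and 13.29 on the WT arrays (-4.60 ± 0.91 SE, adjusted p = 0.0026), and its partner S100a9 read 7.89, 9.18 and 12.99 on the LeuB arrays, against 12.18, 14.74 and 14.66 on the WT arrays (-3.84 ± 1.17 SE, adjusted p = 0.025). LeuB 3 stood well above the other LeuB arrays in both calprotectin genes. It was the highest LeuB array in 14 of the 16 genes, and WT 1 was the lowest WT array in 14 of the 16. Without LeuB 3 the list had 13 falls, without WT 1 it had 11, and without both arrays 14, an alternative chosen after seeing the data. The call of S100a9 was lost when LeuB 1, LeuB 2, WT 2 or WT 3 was left out (adjusted p of 0.072 to 0.091). Padi4, a peptidylarginine deiminase of neutrophils, changed by -3.31, and Lcn2, the iron-siderophore binding protein lipocalin 2, by -2.44.

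**Figure D3:**
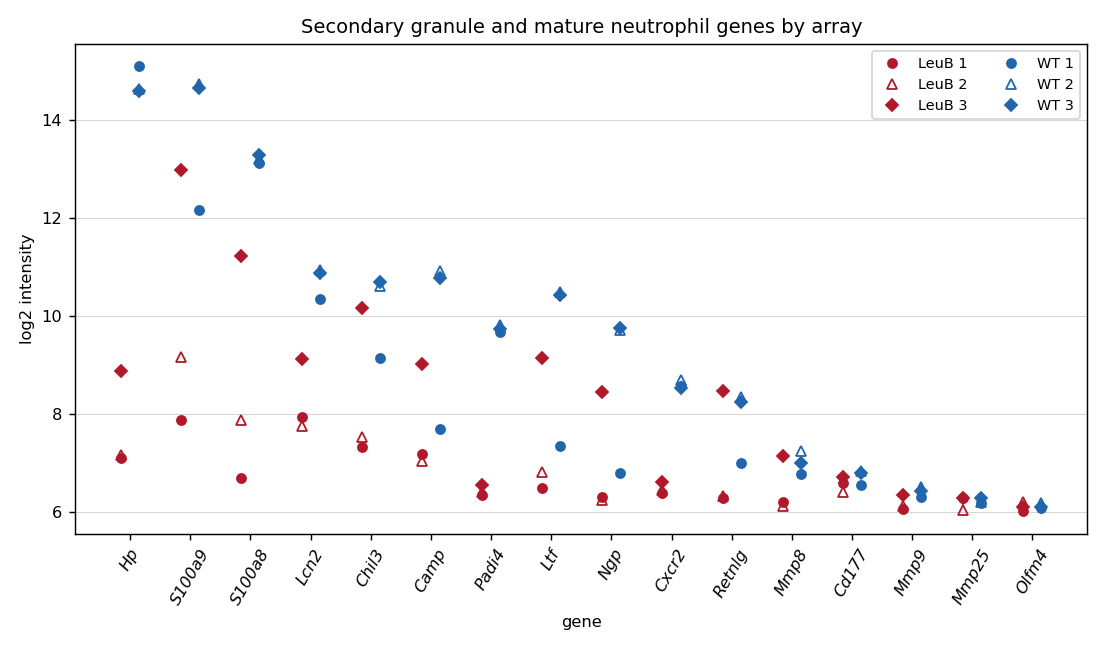
Log2 intensity of the 16 secondary granule and mature neutrophil genes on LeuB 1 to 3 and WT 1 to 3. LeuB 3 reads higher than the other LeuB arrays and WT 1 lower than the other WT arrays in 14 of the 16 genes.

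Transcription factors of granulocytes and monocytes fell with the granule genes: 11 of 15 fell and 1 rose, with a median of -1.52. Cebpe, which drives secondary granule formation, read 6.49, 6.19 and 7.02 on the LeuB arrays, against 14.28, 14.57 and 14.55 on the WT arrays (-7.90 ± 0.18 SE, adjusted p = 9.4e-10). Irf8, which directs the monocyte and dendritic branches, read 6.24, 6.42 and 6.98 on the LeuB arrays, against 14.23, 13.86 and 13.76 on the WT arrays (-7.40 ± 0.19 SE, adjusted p = 1.6e-09). Cebpa, required to form GMPs, read 6.54, 6.08 and 6.49 on the LeuB arrays, against 11.76, 11.86 and 11.79 on the WT arrays (-5.43 ± 0.12 SE, adjusted p = 7.9e-10). For these 3 genes the LeuB arrays stayed near the bottom of the scale, far below any WT array. Gfi1, a repressor needed for neutrophil development, changed by -6.54, and Cebpd by -6.74. Egr1, an immediate early gene of the monocyte programme, was the gene that rose (1.80, named after its values were seen).

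Phagocyte, monocyte and pathogen-sensing genes were lower on balance. Of 20 genes of phagocyte receptors, integrins and NADPH oxidase 12 fell and 2 rose (median -0.57). F13a1, coagulation factor XIII A of monocytes, read 6.24, 6.14 and 7.68 on the LeuB arrays, against 14.08, 13.17 and 13.28 on the WT arrays (-6.83 ± 0.39 SE, adjusted p = 5e-07). Ly86, which binds the Toll-like receptor relative CD180, read 6.61, 6.26 and 6.93 on the LeuB arrays, against 12.64, 11.97 and 11.97 on the WT arrays (-5.60 ± 0.21 SE, adjusted p = 2.2e-08). The NADPH oxidase organiser Ncf1 changed by -4.81 and its partner Ncf4 by -2.75, and Ms4a6c by -4.80. In the monocyte marker list 7 of 8 genes fell, with a summed intensity of 10.14, 10.07 and 10.43 in LeuB cells, against 15.68, 15.12 and 15.10 in WT cells. Among 22 pattern sensors 12 fell and 3 rose (median -0.39), with changes of -3.87 for the peptidoglycan sensor Nod1, -3.66 for the beta-glucan receptor Clec7a and -3.55 for the lipopeptide receptor Tlr2. Tlr4, the endotoxin receptor, fell by 1.43 on the brighter probe, whereas its other probe read -0.05 and was not called.

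Antigen presentation genes fell in 9 of 17 cases and rose in 1 (median -0.57). The MHC class II beta chain gene H2-Ab1 read 6.84, 6.44 and 7.72 on the LeuB arrays, against 11.95, 12.04 and 12.03 on the WT arrays (-5.01 ± 0.26 SE, adjusted p = 2.5e-07). The class II peptide loading genes H2-DMa and H2-DMb1 changed by -4.05 and -2.998, and Ctss, the cathepsin that trims the invariant chain, by -3.27. Psmb8, an immunoproteasome subunit gene, changed by -1.36. Class II genes are known markers of dendritic and B cells. The B cell marker list (5 measured) summed to 9.995, 10.02 and 10.09 on the LeuB arrays, against 12.34, 12.24 and 12.24 on the WT arrays. Its sum is carried by Cd79b, which averaged 9.41 in LeuB cells and 12.15 in WT cells, while Cd79a, Pax5 and Ebf1 differed by -0.04, -0.11 and 0.06 and were not called. The list's part in the class II values was not tested.

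Erythroid and megakaryocyte transcription factors rose in 11 of 16 cases and fell in 4 (median 0.91). Gata1, the master regulator of red cell genes, read 14.89, 15.06 and 15.13 on the LeuB arrays, against 10.01, 10.71 and 10.76 on the WT arrays (4.54 ± 0.18 SE, adjusted p = 3.3e-08). Klf1, which activates adult beta-globin, read 11.998, 11.92 and 12.02 on the LeuB arrays, against 7.07, 7.66 and 7.92 on the WT arrays (4.43 ± 0.18 SE, adjusted p = 4.4e-08). The LeuB and WT arrays did not overlap for either gene, as in 3008 of the 3013 called genes that moved at least 2-fold. Gfi1b, a repressor of erythroid and platelet precursors, changed by 3.86 and Tal1, a partner of GATA1, by 2.42. Gata2, which also serves stem cells and mast cells, read 13.06, 13.04 and 13.16 on the LeuB arrays, against 10.34, 11.30 and 11.29 on the WT arrays (2.10 ± 0.24 SE, adjusted p = 6.7e-05). For all 3 factors WT 1 was the lowest WT array.

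Haemoglobin and haem synthesis genes rose in 14 of 17 cases and none fell (median 2.42). Alas2, the rate-limiting enzyme of erythroid haem synthesis, was named after its values were seen and read 9.81, 9.77 and 10.40 on the LeuB arrays, against 6.86, 6.40 and 6.47 on the WT arrays (3.42 ± 0.21 SE, adjusted p = 7.3e-07). The globins Hba-a2 and Hbb-b1 changed by 6.15 and 3.91. Cpox, Fech and the other measured enzymes of the pathway also rose, by 1.18 (Alad) to 3.42 (Alas2). The 3 genes not called were the embryonic globins Hbb-y, Hbb-bh1 and Hba-x, whose changes lay between -0.11 and -0.08.

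Red cell membrane and surface genes rose in 17 of 18 cases, with the highest median of any list (2.98). Ermap, an erythroid membrane protein gene, read 13.99, 13.81 and 13.76 on the LeuB arrays, against 6.54, 7.71 and 7.59 on the WT arrays (6.58 ± 0.26 SE, adjusted p = 3.5e-08). Car1, carbonic anhydrase 1, read 15.78, 15.82 and 15.77 on the LeuB arrays, against 8.82, 9.91 and 10.04 on the WT arrays (6.20 ± 0.27 SE, adjusted p = 7.6e-08), and Kel, the Kell blood group antigen gene, read 13.27, 13.08 and 13.15 on the LeuB arrays, against 6.72, 7.57 and 7.33 on the WT arrays (5.96 ± 0.18 SE, adjusted p = 5.8e-09). WT 1 was the lowest WT array in all 3 genes. Rhd, a Rhesus antigen gene, changed by 5.86 and Cd59a, an inhibitor of complement lysis, by 5.39. The gene that fell was Aqp1, the water channel of red cells, which read 6.61, 6.94 and 7.12 on the LeuB arrays, against 8.17, 10.07 and 10.08 on the WT arrays and was named after its values were seen. Iron handling was less uniform, with 8 rises and 4 falls among 16 genes (median 0.43), the falls near the share over all genes (20.4%). Slc11a2, the endosomal iron transporter gene, changed by 2.89, the ferritin heavy chain gene Fth1 by 1.56, the ferrireductase gene Steap3 by 1.46, the mitochondrial iron importer gene Slc25a37 by 1.27, and Tfr2, transferrin receptor 2, by 1.14.

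Mast cell, basophil and eosinophil genes moved in both directions, with 11 rises and 7 falls among 24 (median 0.58). Cd200r3, a mast cell and basophil receptor gene, read 12.16, 12.19 and 12.38 on the LeuB arrays, against 6.53, 6.49 and 6.48 on the WT arrays (5.75 ± 0.12 SE, adjusted p = 5.6e-10). Alox5, which starts leukotriene synthesis, read 15.07, 14.96 and 14.93 on the LeuB arrays, against 9.93, 10.21 and 10.33 on the WT arrays (4.83 ± 0.13 SE, adjusted p = 2.4e-09), and Il4, the type 2 cytokine gene, read 11.98, 11.98 and 11.94 on the LeuB arrays, against 7.26, 7.31 and 7.15 on the WT arrays (4.73 ± 0.09 SE, adjusted p = 3.8e-10). In these 3 genes every LeuB array lay above every WT array. Their choice by size of change all but fixed this, as 3008 of the 3013 called genes that moved at least 2-fold had no overlap. In the opposite direction Fcer1g, the signalling chain shared by Fc receptors, read 8.10, 7.91 and 8.59 on the LeuB arrays, against 13.76, 13.29 and 13.33 on the WT arrays (-5.26 ± 0.18 SE, adjusted p = 1.5e-08), and the eosinophil granule gene Prg2 changed by -5.05. The IgE receptor chains Fcer1a and Ms4a2 rose by 4.61 and 4.51, while the granule protease genes Cpa3 and Mcpt8 fell by 0.82 and 2.81 and another, the mast cell chymase gene Cma1, rose by 4.42, all 5 named after their values were seen. The mast cell and basophil marker list (8 measured, 5 rises, 3 falls) summed to 16.33, 16.55 and 16.47 in LeuB cells, against 14.89, 15.06 and 15.13 in WT cells. Hdc made up most of this sum, with an average of 15.87 in LeuB cells and 14.21 in WT cells.

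Single genes of amine metabolism and single neuronal genes showed large changes in both directions. In the amine list 7 of 16 genes rose and 5 fell (median -0.02), beside Ddc and Tph1 with rises of 3.64 for monoamine oxidase B (Maob) and 3.01 for Gch1, which supplies the cofactor of Tph1. Hnmt, which inactivates histamine, read 6.20, 6.30 and 6.22 on the LeuB arrays, against 9.98, 9.52 and 9.68 on the WT arrays (-3.49 ± 0.11 SE, adjusted p = 6.1e-09). The falls of this list numbered 3 in the slide-block fit and 2 without LeuB 3 and WT 1. Of 21 neuronal and neuroendocrine genes, which include the Bex family, 7 rose and 4 fell (median -0.05), and Bex4 rose by 3.92 while its relatives Bex6 and Bex1 changed by -4.88 and -3.26. The falls of this neuronal list lie below the share over all genes (20.4%) and are no result about the list.

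Platelet genes and stem cell genes were mostly lower. In the megakaryocyte list 9 of 17 fell and 4 rose (median -0.34). Gp5, a platelet von Willebrand factor receptor chain, read 11.92, 12.11 and 12.08 on the LeuB arrays, against 7.04, 6.95 and 6.86 on the WT arrays (5.09 ± 0.08 SE, adjusted p = 1.5e-10), and Rab27b, needed for granule release, changed by 4.35. The tetraspanin gene Cd9, the integrin gene Itgb3 and the platelet chemokine gene Pf4 changed by -4.40, -3.87 and -3.28. Among 19 stem and progenitor genes 11 fell and 4 rose (median -0.83). Cd93, a surface receptor gene of early progenitors, read 7.65, 7.63 and 8.14 on the LeuB arrays, against 14.73, 14.60 and 14.65 on the WT arrays (-6.85 ± 0.31 SE, adjusted p = 8e-08). Ifitm1, an interferon-inducible membrane protein gene of stem cells, read 6.30, 6.33 and 6.87 on the LeuB arrays, against 12.89, 13.46 and 13.50 on the WT arrays (-6.78 ± 0.19 SE, adjusted p = 2.9e-09). Sox4 changed by -5.86 on the brighter probe and by -2.64 on the other, Angpt1, the ligand of the receptor TEK, by -2.99, and Ifitm3 by -2.92.

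Hox, Meis and Pbx genes were lower in 8 of 18 cases and higher in 2 (median -0.25). Hoxa7 read 6.40, 6.76 and 6.58 on the LeuB arrays, against 11.73, 11.91 and 11.89 on the WT arrays (-5.26 ± 0.09 SE, adjusted p = 2.2e-10), and Meis1, the cofactor of HOX proteins in many leukaemias, read 6.53, 6.19 and 6.29 on the LeuB arrays, against 10.94, 11.30 and 11.27 on the WT arrays (-4.83 ± 0.12 SE, adjusted p = 1.2e-09). Neither gene left the bottom of the scale on any LeuB array. Meis2 and Pbx3, other cofactors, rose by 3.89 and 2.49. Hoxb4 changed by -2.87, a call that the slide-block fit did not give (-3.14, adjusted p = 0.093).

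A list of 10 measured genes held antigens of the sort gate, antigens of cells that the gate leaves out, and the related antigens Cd34 and Ptprc, which the gate does not name; of these 7 fell and 1 rose (median -0.52). Kit, the receptor selected by the gate, read 12.48, 12.26 and 12.40 on the LeuB arrays, against 12.54, 12.50 and 12.76 on the WT arrays, a difference of -0.22 that was not called (adjusted p = 0.088). Fcgr3 and Fcgr2b, which encode CD16 and CD32, changed by -1.43 and -0.96, and Slamf1 (CD150) by 0.83. Slamf1, whose antigen the gate leaves out, averaged 6.89 in LeuB cells and 6.06 in WT cells, both below the median of every array. Cd34 changed by -2.47 and Ptprc, the pan-leukocyte antigen CD45, by -2.44. The targeted gene Tet2 read 9.05, 8.98 and 8.98 on the LeuB arrays, against 9.29, 9.19 and 9.29 on the WT arrays, a change of -0.25 ± 0.06 SE, adjusted p = 0.011, a call that the slide-block fit did not keep (adjusted p = 0.12), nor an average over its probes (-0.10, adjusted p = 0.31). Where the probes lie relative to the deletion was not examined, so this value does not check the labels. Tet1 changed by -3.01 (its other probe by -1.08, not called) and Tet3 by 0.51, and the call of Tet3 ended in the slide-block fit (adjusted p = 0.078) and without LeuB 3 and WT 1. Runx1 changed by 1.14, and Runx1t1 by 0.87 (adjusted p = 0.02, and 0.31 in the slide-block fit). It is not known here if either probe detects AE.

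Cytokine receptor genes moved in both directions, with 8 rises and 11 falls among 21 (median -0.25). Epor, the erythropoietin receptor gene, read 13.75, 13.47 and 13.48 on the LeuB arrays, against 7.92, 8.85 and 8.68 on the WT arrays (5.09 ± 0.21 SE, adjusted p = 4.4e-08). Tnfrsf1a, a tumour necrosis factor receptor gene, read 6.24, 6.38 and 6.55 on the LeuB arrays, against 13.22, 13.17 and 13.15 on the WT arrays (-6.79 ± 0.09 SE, adjusted p = 6.6e-11), and Ifngr1, the interferon gamma receptor gene, read 6.51, 6.79 and 7.46 on the LeuB arrays, against 13.74, 13.43 and 13.48 on the WT arrays (-6.63 ± 0.27 SE, adjusted p = 4.8e-08). The LeuB level was thus high for Epor and low for both inflammatory receptors. Il6ra and Il3ra, the alpha chains of the interleukin 6 and 3 receptors, changed by -4.89 and -4.62. Adhesion and homing genes included 10 falls and 7 rises among 20 (median -0.42), the rises numbering 4 with slide as a block. Cxcr4, which holds progenitors in the marrow, read 5.99, 6.06 and 6.42 on the LeuB arrays, against 10.47, 10.40 and 10.49 on the WT arrays (-4.30 ± 0.11 SE, adjusted p = 1.6e-09). Itgb7 changed by 3.79, the monocyte homing receptor gene Ccr2 by -3.01 and Vcam1 by -2.73. Of 22 ion channel, calcium entry and purine receptor genes 10 rose and 6 fell (median 0.28, with 3 falls in the slide-block fit), among them the proton channel gene Hvcn1 (-5.78) and the ATP receptor genes P2rx7 (3.90), P2ry2 (-3.74) and P2ry1 (2.87). Itpr2 changed by 3.63 on the brighter probe and by 0.17, not called, on the other.

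**Figure D4:**
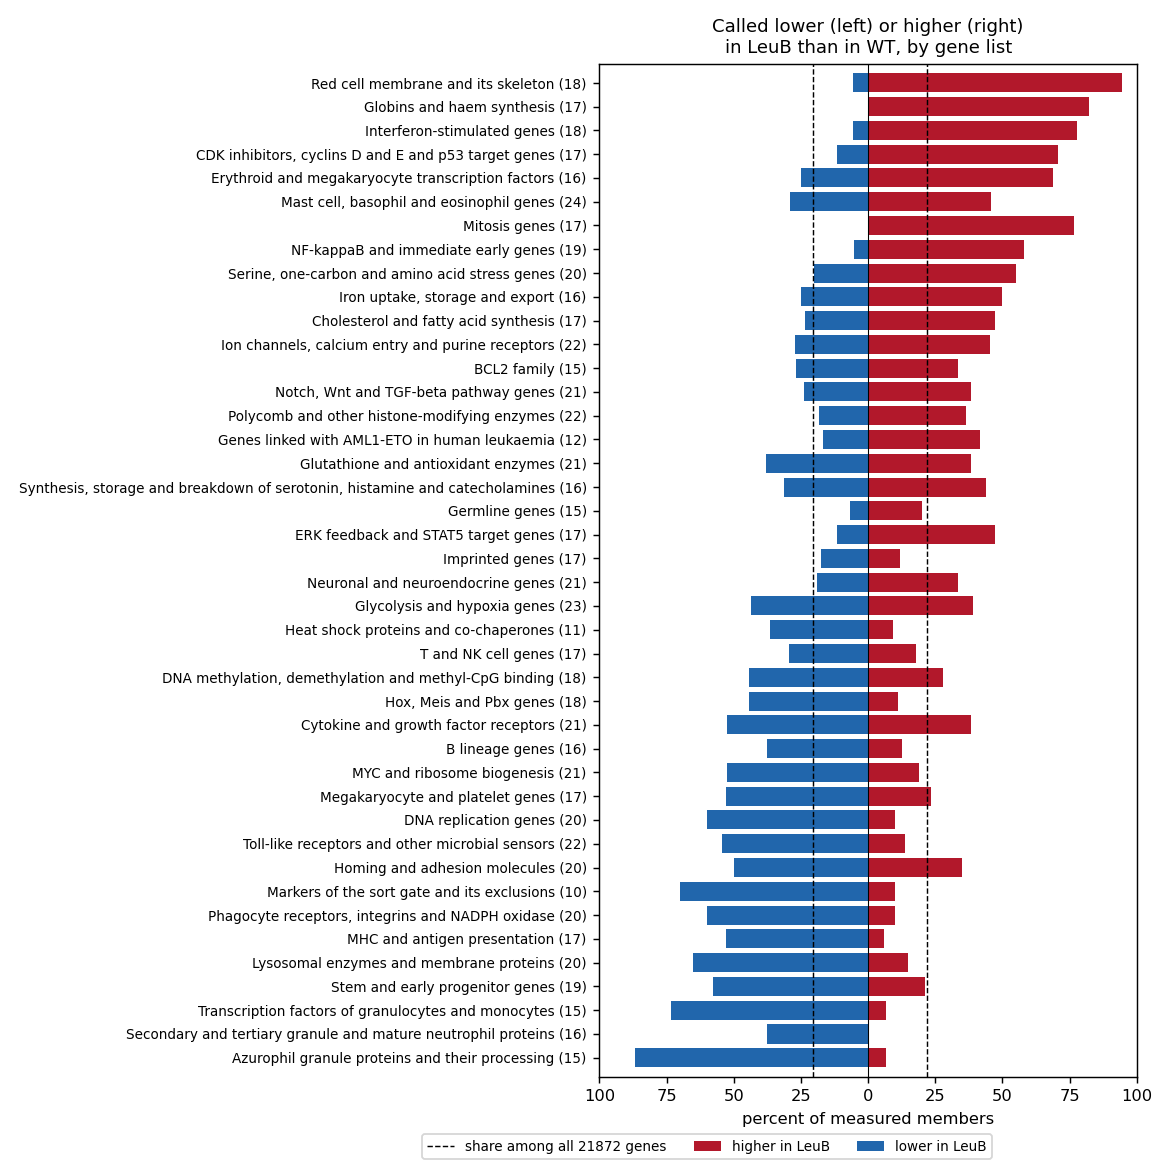
Percent of the measured members of each gene list that were called lower (left) or higher (right) in LeuB than in WT cells, ordered by the list's median change. Red cell membrane genes head the plot and azurophil granule genes end it, and the dashed lines mark the shares among all genes (20.4% lower, 21.8% higher).

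Replication and mitosis genes changed by small amounts. Of 20 DNA replication genes 12 fell and 2 rose (median -0.36). Gins2, a subunit of the replicative helicase, read 10.63, 10.28 and 10.29 on the LeuB arrays, against 11.67, 11.44 and 11.50 on the WT arrays (-1.14 ± 0.10 SE, adjusted p = 1.5e-05), and the helicase subunit genes Mcm3, Mcm5 and Mcm7 changed by -0.88, -0.79 and -0.81, the last by -0.45 with slide as a block. Of 17 mitosis genes 13 rose and none fell (median 0.57), and on slide 1 alone 8 rose. Mki67, the proliferation antigen gene, read 15.34, 15.40 and 15.31 on the LeuB arrays, against 14.06, 14.14 and 14.24 on the WT arrays (1.20 ± 0.07 SE, adjusted p = 4.4e-07), and Ube2c, a ubiquitin carrier of the anaphase-promoting complex, changed by 1.23. Plk1 changed by 0.81 (adjusted p of 0.057 on slide 1 alone), Kif20a by 0.66, and Tpx2 by 0.69 on the brighter probe and by -0.06 on the other.

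Cyclin-dependent kinase inhibitors, cyclin genes and p53 target genes rose in 12 of 17 cases and fell in 2 (median 1.08). Phlda3, a p53 target that restrains AKT, read 12.59, 12.52 and 12.55 on the LeuB arrays, against 7.81, 8.35 and 8.21 on the WT arrays (4.43 ± 0.13 SE, adjusted p = 5.6e-09). Cdkn2a, which encodes the INK4A and ARF inhibitors, read 9.60, 9.95 and 9.79 on the LeuB arrays, against 6.34, 6.36 and 6.35 on the WT arrays (3.43 ± 0.12 SE, adjusted p = 1.5e-08), and Zmat3, another p53 target, read 10.45, 10.52 and 10.40 on the LeuB arrays, against 6.99, 7.03 and 7.12 on the WT arrays (3.41 ± 0.11 SE, adjusted p = 7.1e-09). All measured Cdkn genes of the list were among the rises on the brightest probe, from 1.05 (Cdkn1a) to 3.43 (Cdkn2a). Other probes of Cdkn1a read 0.74 and 0.12, the latter not called. The cyclin genes parted: Ccnd1 fell by 3.18 and Ccnd2 rose by 1.85. Among 15 BCL2 family genes 5 rose and 4 fell (median 0.27), the rises including the death-promoting Bmf (2.19), Bik (2.05) and Bbc3 (1.66) and the survival gene Bcl2l1 (1.83), while the survival gene Bcl2 changed by -1.72. The falls of the BCL2 list lie near the share over all genes (20.4%).

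Interferon-stimulated genes rose in 14 of 18 cases and 1 fell (median 1.24). Ifi27l2a read 16.02, 15.55 and 15.56 on the LeuB arrays, against 9.45, 9.72 and 9.56 on the WT arrays (6.14 ± 0.13 SE, adjusted p = 5.6e-10). Oas2, an antiviral oligoadenylate synthetase gene, read 13.55, 13.45 and 13.23 on the LeuB arrays, against 8.38, 9.06 and 9.04 on the WT arrays (4.58 ± 0.18 SE, adjusted p = 3.4e-08), and Usp18, which removes the ubiquitin-like ISG15 from proteins, read 11.81, 11.76 and 11.70 on the LeuB arrays, against 7.77, 8.16 and 8.27 on the WT arrays (3.69 ± 0.17 SE, adjusted p = 1.1e-07). The LeuB and WT arrays did not overlap in these 3 genes, which their choice by size of change all but fixed. Isg15 and Irf7, the amplifier of type I interferon, changed by 3.31 and 3.10. The gene that fell was Gbp3, a guanylate-binding protein gene (-1.49, named after its values were seen). NF-kappaB and immediate early genes rose in 11 of 19 cases and 1 fell (median 0.57). Klf6 read 12.97, 13.13 and 13.08 on the LeuB arrays, against 9.67, 9.38 and 9.31 on the WT arrays (3.61 ± 0.13 SE, adjusted p = 1.4e-08), and Tnfaip3, a brake on NF-kappaB, changed by 2.37, Jund by 1.52 and Jun by 1.51. Relb changed by 2.54 on the brighter probe and by -0.26, not called, on the other. The gene that fell was Nr4a1 (-1.12, named after its values were seen).

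ERK feedback and STAT5 target genes included 8 rises and 2 falls among 17 (median -0.03). Cish, a STAT5 target that dampens cytokine receptors, read 11.22, 11.31 and 11.48 on the LeuB arrays, against 7.42, 7.62 and 7.59 on the WT arrays (3.79 ± 0.13 SE, adjusted p = 1.4e-08). Socs2 changed by 3.98 (0.38 on its other probe), Socs1 by 2.46, and Spred1, an inhibitor of RAS signalling, by 1.40. Dusp6, the phosphatase of ERK, read 7.43, 7.81 and 8.57 on the LeuB arrays, against 10.70, 10.71 and 10.68 on the WT arrays (-2.76 ± 0.23 SE, adjusted p = 7.7e-06) and was thus among the falls. The 2 falls became 4 without LeuB 3, LeuA 1 or LeuA 2. Among 21 Notch, Wnt and TGF-beta pathway genes 8 rose and 5 fell (median 0.19, with 3 falls in the slide-block fit), and the inhibitors of differentiation Id2 and Id1 changed by 2.91 and 1.61, the Notch target Hes1 by 3.10, Smad7 by 1.43 and Nrarp by 1.29.

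Chromatin genes changed in part. Of 18 genes of DNA methylation, demethylation and methyl-CpG binding 8 fell and 5 rose (median -0.23), with 2 rises in the slide-block fit and 3 without LeuB 3 and WT 1. The methyltransferase genes Dnmt3a and Dnmt3b changed by -1.96 and -1.57, and Idh1 and Idh2, which make the cofactor of the TET enzymes, by -1.29 and -1.72. Dnmt3a read 8.51, 8.54 and 8.66 on the LeuB arrays, against 10.15, 10.74 and 10.70 on the WT arrays. Of 22 Polycomb and other histone-modifying genes 8 rose and 4 fell (median 0.18), the falls below the share over all genes (20.4%). Cbx2, a Polycomb reader of methylated histone H3, read 6.24, 6.19 and 6.16 on the LeuB arrays, against 8.73, 9.04 and 8.99 on the WT arrays (-2.72 ± 0.12 SE, adjusted p = 5.5e-08), and the demethylase genes Kdm6b, Kdm6a and Kdm5b changed by 1.90, 1.36 and 1.30, and the deacetylase gene Hdac7 by 1.25. Ribosome biogenesis and MYC network genes included 11 falls and 4 rises among 21 (median -0.29), with nucleolin (Ncl) at -1.15, Nolc1 at -0.55 and Wdr12 at -0.42, against Mxd1 and Max, partners in the MYC network, at 0.97 and 0.63.

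Metabolic lists each held large changes in both directions. Of 23 glycolysis and hypoxia genes 9 rose and 10 fell (median -0.05). Hk3, the hexokinase of myeloid cells, read 7.11, 6.94 and 6.94 on the LeuB arrays, against 13.98, 13.47 and 13.53 on the WT arrays (-6.66 ± 0.12 SE, adjusted p = 3e-10). Ldhb, a lactate dehydrogenase subunit gene, read 6.60, 6.22 and 6.75 on the LeuB arrays, against 12.48, 12.33 and 12.26 on the WT arrays (-5.84 ± 0.24 SE, adjusted p = 5e-08), and Egln3, an oxygen sensor gene, changed by -4.74. Aldoc, an aldolase gene, and Slc2a3, a glucose transporter gene, rose by 4.07 and 2.99. Of 20 serine, one-carbon and amino acid stress genes 11 rose and 4 fell (median 0.47; 2 falls in the slide-block fit), led by Asns, asparagine synthetase, which read 15.72, 15.68 and 15.80 on the LeuB arrays, against 11.87, 11.63 and 11.68 on the WT arrays (4.002 ± 0.10 SE, adjusted p = 1.4e-09), and Trib3 (4.20), both targets of ATF4. Phgdh, the entry enzyme of serine synthesis, read 11.58, 11.43 and 11.92 on the LeuB arrays, against 14.41, 14.18 and 14.21 on the WT arrays (-2.62 ± 0.17 SE, adjusted p = 1.1e-06). Mthfd1 changed by 1.89 and Shmt1 by -1.88.

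Redox, lipid and lysosome genes followed the same uneven course, except that lysosome genes were mainly lower. Of 21 redox genes 8 rose and 8 fell (median 0.08): the glutathione transferase gene Gstm1 read 6.81, 6.86 and 6.91 on the LeuB arrays, against 13.83, 13.28 and 13.32 on the WT arrays (-6.61 ± 0.13 SE, adjusted p = 4.9e-10), Mgst1, Mgst2 and Gsr changed by -5.42, -4.62 and -2.45, and Nqo1, a quinone reductase gene, by 3.29. Of 17 lipid synthesis genes 8 rose and 4 fell (median 0.34), with Scd1, the stearoyl-CoA desaturase gene, at 2.89, the elongase gene Elovl6 at -2.68, the sterol genes Fdft1 and Lss at 1.51 and 1.15, and Srebf1 at 1.08. The 4 falls of this list became 2 without LeuB 1 or without LeuB 3. Of 20 lysosome genes 13 fell and 3 rose (median -0.58). The cathepsin genes Ctsl and Ctsh changed by -3.94 and -3.89, and Manba, beta-mannosidase, by -2.25. Ctsl read 6.32, 6.38 and 6.82 on the LeuB arrays, against 10.60, 10.33 and 10.42 on the WT arrays. Psap, the precursor of the saposins, read 8.96, 10.87 and 10.58 on the LeuB arrays, against 12.12, 11.82 and 11.55 on the WT arrays (-1.70 ± 0.41 SE, adjusted p = 0.0086), and its change was -2.87 in the slide-block fit and -1.11 when LeuB 1 was left out. Gaa changed by -1.42 on the brighter probe and by 0.00 on the other. Of 11 heat shock genes 4 fell and 1 rose (median -0.11), and Bag3, the cochaperone of HSP70, read 6.22, 6.40 and 6.67 on the LeuB arrays, against 9.92, 10.14 and 10.05 on the WT arrays (-3.61 ± 0.12 SE, adjusted p = 1e-08). Hspa5, the chaperone of the endoplasmic reticulum, changed by -1.14, Hspd1 by -0.61 and Hsp90aa1 by 0.72.

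Among lymphoid, germline and imprinted genes the largest called change was that of Gata3. Of 16 B cell genes 2 rose and 6 fell (median -0.26), of 17 T and NK cell genes 3 rose and 5 fell (-0.18), of 15 germline genes 3 rose and 1 fell (-0.03), and of 17 imprinted genes 2 rose and 3 fell (-0.04). Among all genes 21.8% were called higher and 20.4% lower, so the rises in these 4 lists and the falls of germline and imprinted genes lie below the background and are no result about the lists. The T and NK cell falls numbered 2 in the slide-block fit and 2 or 3 without LeuB 2, LeuB 3, WT 1, WT 2 or WT 3, and the imprinted falls 6 without LeuB 1. Gata3, a T cell and type 2 cytokine regulator, read 11.26, 11.10 and 11.19 on the LeuB arrays, against 6.40, 6.49 and 6.46 on the WT arrays (4.73 ± 0.10 SE, adjusted p = 4.9e-10). The B cell receptor chain gene Cd79b and the surface gene Cd72 changed by -2.73 and -2.96, Ly6d by 2.25, and Dntt by -0.81 (-0.38 with slide as a block). Cd7 changed by 1.84 and Thy1 by -1.47. Dazl, a germ cell RNA-binding protein gene, changed by 0.93, and Plagl1, an imprinted zinc finger gene, by -0.77. Of 12 genes linked with AML1-ETO in human leukaemia 5 rose and 2 fell (median 0.11; 3 rises without LeuB 2, LeuB 3 or WT 1), among them Ugcg, which makes glucosylceramide (2.63), and the neural transcription factor gene Pou4f1 (1.51), while Runx3 changed by -0.50. The falls of this last list also lie below the background.

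Markers of further cell types that a marrow sort could hold were read beside these lists. The mature neutrophil list (8 measured, 4 falls) summed to 10.03, 10.54 and 13.64 on the LeuB arrays, against 13.92, 15.40 and 15.36 on the WT arrays. The eosinophil list (5 measured, 3 falls) summed to between 9.25 and 9.28 in LeuB cells, against 12.27 to 12.40 in WT cells. Megakaryocyte markers (6 measured, 1 rise, 4 falls) summed to between 12.22 and 12.41 in LeuB cells and between 11.54 and 11.84 in WT cells. The higher LeuB sum rests on Gp5, which averaged 12.04 in LeuB cells and 6.95 in WT cells, while Pf4, Itga2b, Gp9 and Vwf fell. Stem cell markers (5 measured, 2 rises, 1 fall) summed to between 10.48 and 10.77 in LeuB cells and between 10.02 and 10.17 in WT cells. This sum rests mostly on Hlf, which averaged 10.14 in LeuB cells and 9.14 in WT cells, while Procr fell. T and NK cell markers (5 measured, 1 rise, 2 falls) summed to between 10.50 and 10.95 in LeuB cells and between 11.08 and 11.29 in WT cells, and stromal and endothelial markers (8 measured, 1 rise, 3 falls) to between 11.74 and 12.09 in LeuB cells and between 12.26 and 12.55 in WT cells. The first sum rests mostly on Cd3e (10.44 in LeuB, 10.98 in WT) and the second on Lepr (11.49 in LeuB, 11.98 in WT). Among the T and NK calls, those of Cd3g and Klrb1c were lost without LeuB 2 or without LeuB 3. The call of Cd3e was lost without LeuB 3 and WT 1 together. With slide as a block, Cd3e, Cd3g and Klrb1c shrank from -0.54, 0.23 and -0.20 to -0.28, 0.14 and -0.12. Among the stromal and endothelial calls, Lepr and Cxcl12 shrank from -0.49 and -0.28 to -0.21 each. Pdgfrb and Kdr stayed at -3.25 and 1.07 in that fit. The part of these cell types in the changes above was not tested.

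A set of 3047 genes met the bound of a 95% interval within 0.25 log2 units of 0 after unnamed gene models were left out. The brightest were the ribosomal protein genes Rpl41, Rps14, Rpl37a and Rpl37, the histone genes H2ac11 and H2ac10, the exosome gene Exosc2 and the cyclophilin gene Ppia. Their differences lay between -0.08 (Rpl37) and 0.10 (Rpl37a). Ppia read 17.95, 17.91 and 17.90 on the LeuB arrays, against 18.01, 17.82 and 17.95 on the WT arrays. All 8 lie near the ceiling of 18.24, where a change could go unseen.

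The 3 LeuB arrays differed among themselves in a small set of genes. Pmaip1, the p53-inducible death gene NOXA, read 5.89, 14.42 and 5.83 on the LeuB arrays, against 9.71, 7.56 and 7.46 on the WT arrays, so LeuB 2 alone was high, and the difference of 0.47 was not called. Greb1 read 8.46, 12.23 and 8.03 on the LeuB arrays, against 8.25, 8.38 and 8.48 on the WT arrays. Ptk7, a pseudokinase receptor gene, read 10.06, 12.005 and 9.86 on the LeuB arrays, against 10.03, 10.27 and 10.19 on the WT arrays, again highest on LeuB 2. The neutrophil genes Chil3 and Ltf and the lysozyme gene Lyz1 varied through LeuB 3, and Lyz1 read 6.51, 6.81 and 8.79 on the LeuB arrays, against 12.22, 11.88 and 11.90 on the WT arrays (-4.63 ± 0.49 SE, adjusted p = 3.8e-05). LeuB 1 stood over 1 log2 unit from the mean of the other LeuB arrays in 125 genes, LeuB 3 in 60 and LeuB 2 in 25. Genes in which LeuB 1 stood furthest apart included the mitotic kinesin gene Kifc1, which read 9.22, 11.20 and 11.04 on the LeuB arrays, against 11.48, 10.48 and 11.20 on the WT arrays, and Clec2d, which read 6.93, 8.91 and 8.65 on the LeuB arrays, against 9.64, 10.01 and 10.40 on the WT arrays. In both LeuB 1 was the lowest of all 6 arrays. The proteoglycan gene Bgn read 11.30, 9.54 and 9.46 on the LeuB arrays, against 11.29, 11.10 and 11.35 on the WT arrays. Pkp4, of the armadillo family, read 8.71, 6.99 and 6.997 on the LeuB arrays, against 9.10, 9.01 and 9.20 on the WT arrays. In Bgn and Pkp4 LeuB 1 lay with or near the WT arrays of its own slide and LeuB 2 and 3 lay lower. Mroh2a, Lhb and Tmem29 were not called with all arrays, but were called without LeuB 1 (-1.77, -1.77 and -1.45, adjusted p = 6.9e-05, 2.3e-05 and 1.5e-05). These are values of the brightest probe. With all arrays, other probes of Tmem29 read 0.99, called higher in LeuB than in WT, and 0.13, not called.

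Between LeuB and LeuA, 6.91% of genes were called higher in LeuB (1511) and 5.36% lower (1172). Both comparisons share the LeuB arrays, and all LeuA arrays lie on slide 1. With slide as a block, and on slide 1 only, the difference from LeuA therefore rests on LeuB 1. For LeuB against LeuA the total of 2683 depended on the arrays and the slide term: it was 869 with slide as a block, 581 on slide 1 alone, 5498 without LeuB 1, 1380 without LeuB 2, 1503 without LeuB 3, 1727 without LeuA 2 and 1674 without LeuA 3. The 16 genes named next were chosen among those called with slide as a block too. At least 8-fold differences were few, with 13 genes higher and 14 lower in LeuB.

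Genes higher in LeuB than in LeuA included some that neither LeuA nor WT cells showed. Ldhc, the testis form of lactate dehydrogenase, read 12.22, 12.25 and 11.98 in LeuB cells, 6.51, 6.42 and 6.60 in LeuA cells and 6.84, 6.99 and 6.86 in WT cells, a difference of 5.64 ± 0.09 SE, adjusted p = 2.1e-09 from LeuA. Amph, the amphiphysin gene of synaptic vesicle recycling, read 11.75, 11.80 and 11.81 in LeuB cells, 6.27, 6.25 and 6.34 in LeuA cells and 6.22, 6.16 and 6.25 in WT cells (5.50 ± 0.06 SE, adjusted p = 1.7e-10). In both genes LeuA and WT arrays lay near 6 to 7 while LeuB arrays lay near 12. The neighbouring X-linked family genes Xlr3b and Xlr4b kept to another pattern. Xlr3b read 11.44, 11.74 and 11.72 in LeuB cells, 6.27, 6.13 and 6.22 in LeuA cells and 9.91, 10.17 and 9.80 in WT cells (5.43 ± 0.11 SE, adjusted p = 1.6e-08), and Xlr4b differed by 4.60, so for both genes LeuA was the low group. These family members are near-identical copies and single genes cannot be told apart. The remaining genes were Skap1, an adaptor of T cells (4.78), the lipid transporter gene Abca3 (4.36), the haem-binding protein gene Hebp1 (3.59) and the sialyltransferase gene St3gal2 (3.36). Against WT cells the brightest Skap1 probe rose by 4.79, while its other probes read 0.53, 0.44 and -0.005, the last not called. The rise of Abca3 over WT (0.92, adjusted p = 0.048) was lost in the slide-block fit (adjusted p = 0.28) and without any LeuB or any WT array. The slide-block fit also ended the call against WT of St3gal2 (0.70, adjusted p rounding to 0.05 and just above the threshold).

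Among the genes lower in LeuB than in LeuA were several present in WT cells. Hipk3, a nuclear kinase gene, read 6.05, 6.22 and 6.16 in LeuB cells, 10.73, 10.35 and 10.23 in LeuA cells and 11.46, 11.44 and 11.50 in WT cells (-4.29 ± 0.12 SE, adjusted p = 1.2e-07). Ldhb read 6.60, 6.22 and 6.75 in LeuB cells, against 10.92, 10.01 and 10.98 in LeuA cells (-4.12 ± 0.24 SE, adjusted p = 1.4e-05). Bag3 read 6.22, 6.40 and 6.67 in LeuB cells, 10.26, 10.30 and 10.05 in LeuA cells and 9.92, 10.14 and 10.05 in WT cells (-3.78 ± 0.12 SE, adjusted p = 2.9e-07). For these 3 genes LeuB alone lay near the bottom of the scale. Cmtm7 read 9.01, 9.41 and 9.92 in LeuB cells, 13.05, 13.02 and 13.23 in LeuA cells and 15.70, 15.52 and 15.57 in WT cells (-3.65 ± 0.19 SE, adjusted p = 6.6e-06), with LeuB lowest and LeuA between. The other genes were highest in LeuA. Xaf1, an antagonist of the caspase inhibitor XIAP, read 7.52, 7.91 and 7.71 in LeuB cells, 12.46, 12.38 and 12.15 in LeuA cells and 6.71, 7.004 and 6.71 in WT cells (-4.62 ± 0.13 SE, adjusted p = 1.2e-07). Rap1gap, which switches off the small GTPase RAP1, differed from LeuA by -4.57 and the receptor phosphatase gene Ptprf by -3.75. The call of Ptprf against WT (-0.50) ended in the slide-block fit (adjusted p = 0.44). Bex4 was higher in LeuB than in WT cells and higher still in LeuA cells, with a difference of -3.89 from LeuA.

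**Figure D5:**
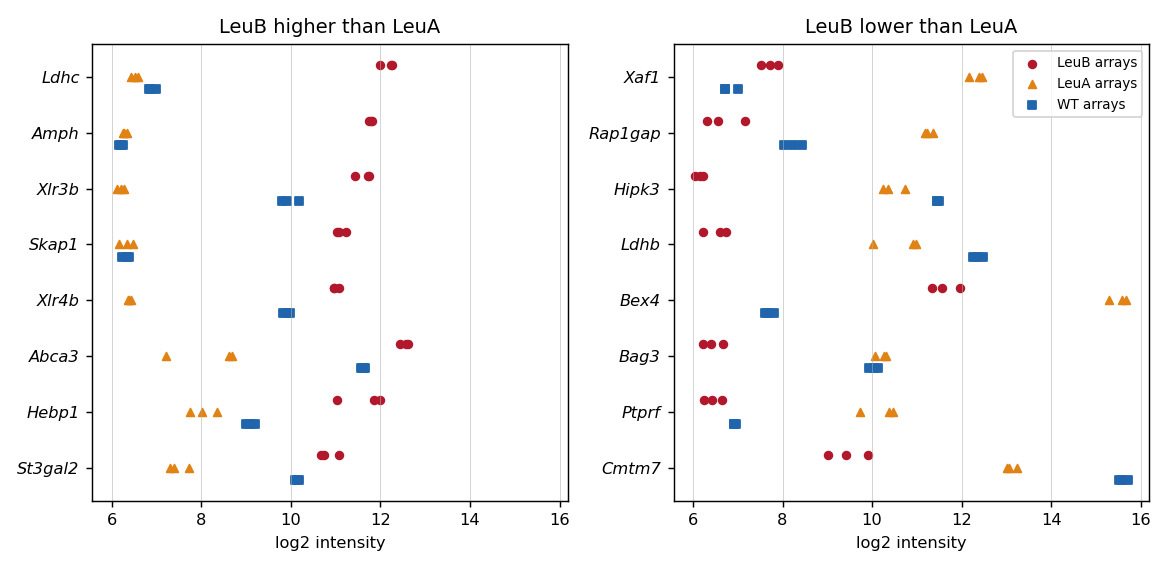
Log2 intensity on each LeuB, LeuA and WT array of the 8 genes most above and the 8 most below LeuA in LeuB cells. Ldhc and Amph are high in LeuB alone, Xlr3b and Xlr4b are low in LeuA alone, and Hipk3, Ldhb and Bag3 are low in LeuB alone.

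Promoter letters were counted for the 17073 of 21872 genes matched to a RefSeq promoter of 300 bases. AGATAA, on either strand, occurred in 9.84% of all promoters, in 14.5% of those of genes that rose at least 8-fold (32 of 220) and in 7.85% of those of genes that fell at least 8-fold (23 of 293). GAGGAAGT, on either strand, occurred in 2.98% of all promoters, in 3.64% of the first group and in 5.46% of the second (16 of 293). Among genes that changed at least 2-fold, AGATAA occurred in 11% of those that rose and 6.98% of those that fell, and GAGGAAGT in 3.51% and 3.91%. Uncalled genes of above-median level held AGATAA in 6.8% and GAGGAAGT in 3.03%. The RUNX letters TGTGGT occurred in 14.5% of all promoters, 15.5% of those that rose and 15% of those that fell at least 8-fold, the KLF letters CCACACCC in 3.73%, 5% and 4.78%, and the C/EBP letters TTGCNNAA in 10%, 9.55% and 10.9%. Median CpG counts per promoter were 11 for genes that rose and 14 for genes that fell at least 8-fold, 14 for all genes and 19 for uncalled genes of above-median level. No test was made of these shares.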

How the data were processed

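RNA from sorted cells was measured on 9 single-colour Agilent arrays (3 LeuB, 3 LeuA, 3 WT). The authors deposited normalised log2 intensities of 37877 probes, which were used as deposited. The submitters' processing notes name RMA, affy and limma without versions or roles. Scanner output was not used here. Of the probes 24877 carry 1 gene symbol and 13000 are unnamed here; 24606 were matched by gene identifier to RefSeq and no symbol changed. For each of 21872 symbols the probe with the highest mean over the 9 arrays was kept.

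Differences were fitted with limma 3.58.1 in R 4.3.3 (lmFit and eBayes, group means over all 9 arrays, 6 residual degrees of freedom), as LeuB minus WT and LeuB minus LeuA. LeuA minus WT came from the same fit. All tests took both directions (two-sided). Genes counted as called when p, adjusted by Benjamini-Hochberg across the 21872 genes, was under 0.05. The number of arrays limits the precision. The labels call the replicates biological without naming separate mice, and p-values then measure only the spread between these samples, which may be technical.

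The comparison, the named genes and the 42 lists (751 of 805 genes measured) were chosen with earlier results of these data known. Named genes are the 15 largest rises and 15 largest falls that are called with and without slide as a block, do not overlap between groups and lie above the median level; the 8 highest and 8 lowest against LeuA; the 8 brightest whose interval lay close to 0; genes that crossed from under the 25th to above the 90th percentile or back; the 8 most uneven within LeuB and the 8 with LeuB 1 furthest apart; the gate genes, TET genes, Runx1 and Runx1t1; and the 5 largest called changes of each list. Unnamed gene models were skipped. Other genes are marked where they occur.

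Alternatives were slide as a block, slide 1 only, only the 6 arrays compared, further quantile normalization, the mean of all probes, an intensity trend with a robust prior, dim genes left out, the replicate block, each array left out in turn, and LeuB 3 with WT 1 left out. In the first 2 of these the LeuB differences come from LeuB 1 alone. The labels give the groups shared replicate numbers, but deviations of same-numbered arrays correlated between -0.04 and 0.10 and were not treated as paired. The fit was tested on simulated data drawn independently for each array, without a slide effect or a ceiling, so that test does not cover these features.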

Additional observations from a re-analysis of the deposited data

Results flagged for a closer look

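Some genes that changed between LeuB and WT cells also differed between LeuB and LeuA by a test of that difference in the same fit, which is what set them apart here. Higher in LeuB were Ldhc (5.64), Amph (5.50), Xlr3b (5.43), Skap1 (4.78), Xlr4b (4.60), Abca3 (4.36), Hebp1 (3.59), St3gal2 (3.36) and Tac2 (1.20), each a log2 difference of LeuB minus LeuA. The Skap1 value is that of its brightest probe, and its other probes changed little against WT cells (0.53, 0.44 and -0.005). Lower in LeuB were Runx1t1 (-1.20), Ctsg (-1.59), Cd63 (-2.73), Cmtm7 (-3.65), Ptprf (-3.75), Bag3 (-3.78), Bex4 (-3.89), Ldhb (-4.12), Hipk3 (-4.29), Rap1gap (-4.57) and Xaf1 (-4.62). LeuA 1 stood above the other LeuA arrays in Runx1t1 (8.82 against 8.03 and 7.74) and Cd63 (11.81 against 9.15 and 9.33). Tac2, Runx1t1, Ctsg and Cd63 were not chosen for a difference from LeuA that was also called with slide as a block. For LeuB against WT, the calls of Abca3, Runx1t1, St3gal2 and Ptprf ended in the slide-block fit (adjusted p = 0.28, 0.31, 0.05 and 0.44).

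Among the 13000 probes without a gene name here, which no comparison above uses, 3365 were called in LeuB against WT (25.9%), 1892 higher and 1473 lower. The share among named probes was 39.9%. At least 2-fold changes were seen for 299 unnamed probes upwards and 300 downwards. The largest rise was that of probe A_52_P534583, at 15.54 in LeuB cells and 8.73 in WT cells, and the largest fall that of probe A_55_P2150976, at 6.83 in LeuB cells and 14.26 in WT cells.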

How the results depend on the processing

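The count of LeuB against WT (9241 genes) stayed within 1.5 times under all 18 alternatives, from 6776 to 10822, the highest without LeuB 1. The count of LeuB against LeuA (2683 genes) was 869 with slide as a block, 581 on slide 1 only, 1783 in a fit of only the 6 arrays compared, 1409 without LeuB 3 and WT 1 together (an alternative chosen after seeing the data), and 1380 to 5498 when single arrays were left out. With the replicate block the counts were 9154 for LeuB against WT and 2281 for LeuB against LeuA, and the replicate numbers do not pair the arrays. Among the named and list genes, 702 kept direction and side of the threshold with slide as a block, 76 lost and 21 gained the call and 2 reversed; on slide 1 only 87 lost it. Values that changed sign were Pmaip1 (-2.38 to 1.91 over single arrays left out), Bgn (0.052 with slide as a block and on slide 1 only) and Brdt (0.39 in both). With the mean of all probes they were Polr1b (0.0008, practically no change) and Hk1 (0.66, with its other probe alone at 1.31). Except for the means over probes and the smaller fits, the cause was not tested. The values give no signal over background, so levels near the bottom of the scale have no order.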

Other observations

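Chromosome 12 stood apart from the other chromosomes in the comparison of LeuB with LeuA, an observation made after the values were seen. Over the 10858 genes of above-median level with a chromosome in the RefSeq table, the 355 genes on chromosome 12 had a median difference (LeuB minus LeuA, log2) of 0.12, while the medians of the other 19 chromosomes lay between -0.07 and 0.05. Of the 355 genes 24.8% were called higher in LeuB and 4.79% lower, against 7.91 to 15.2% called higher on the other chromosomes. The shift was present in 5 equal sets of genes along the chromosome, in order 0.08, 0.15, 0.17, 0.10 and 0.10. Against the LeuA mean LeuB 1, which shares a slide with LeuA and WT, gave 0.08, and LeuB 2 and LeuB 3 gave 0.16 and 0.18. Against WT cells the chromosome 12 median was 0.20 for LeuB, and those of the other chromosomes ran from -0.13 to 0.09. No copy number was measured, and no test was made of this pattern.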
